A study of Mus musculus with 7 samples.

Results

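The genes of the mitochondrial ribosomal proteins were examined in bulk RNA-seq of the cerebral cortex from 7 male mice at postnatal day 100. Members were all genes of the table whose symbol starts with Mrpl or Mrps followed by a number, and 77 of 24346 genes met this rule, 48 with an Mrpl symbol (large subunit) and 29 with an Mrps symbol (small subunit). Each of the 4 CrT-/y and 3 CrT+/y animals gave 1 library. CrT-/y males carry, in the whole body, a deletion of an internal block of exons of the X-linked gene Slc6a8, which encodes the plasma membrane creatine transporter (CrT), and CrT+/y males are their wild-type littermates. Both groups are on a C57BL/6J background. Which animals shared a litter is not given in the sources used here. The comparison asks how the loss of creatine uptake goes with transcript levels of the machinery that makes mitochondrial proteins.

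Mitochondria carry their own ribosomes, which translate the few proteins still encoded by mitochondrial DNA, all of them subunits of the respiratory chain or of the ATP synthase. The ribosomal RNAs come from mitochondrial DNA, whereas every protein of this ribosome is encoded in the nucleus, made in the cytosol and imported. Part of these proteins descend from bacterial ribosomal proteins and part are found only in mitochondria. The large subunit joins amino acids and releases the growing chain through an exit tunnel, and the small subunit binds the messenger and reads its codons. Brain cortex depends heavily on oxidative phosphorylation, and creatine carries high-energy phosphate between mitochondria and the sites where ATP is used.

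Values are FPKM, fragments scaled to transcript length and to library size. Levels of different genes are set beside each other on this scale, and the part of transcript length in these levels was not tested. Differences are log2 fold changes of CrT-/y over CrT+/y on the log2(FPKM + 0.1) scale, fitted with limma over the 12988 genes whose mean reached 1 FPKM, and a gene was called when its Benjamini-Hochberg adjusted p was under 0.1. All 77 members passed that filter. The p-values set the difference between genotypes against the spread between these animals, moderated over all tested genes. Litter was not modelled.

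Slc6a8 itself was at 12.4, 14.9, 14.7 and 15.7 FPKM in CrT-/y replicates 0, 1, 2 and 3 and at 32.3, 29.6 and 28.05 FPKM in CrT+/y replicates 1, 2 and 3, so the groups were fully apart and the labels hold (log2 fold change -1.05, SE 0.087, limma adjusted p = 0.0024). The total reads per library are not in the table, and the depth read from the steps between low values ranged from 0.877 to 1.26 times that of CrT-/y replicate 0. CrT+/y replicate 3 stood apart from the other CrT+/y animals in the members, as described below, so results are given with and without it. The animal was picked out by these same values, so the fit without it is a description and no separate support. Neuronal markers (Snap25, Syt1, Rbfox3 and Tubb3) summed to between 2223 and 2638 FPKM in every animal. Markers of ependyma and choroid plexus summed to 392.7 FPKM in CrT+/y replicate 2 and to between 4.62 and 51.9 FPKM in the others. Striatal markers summed to between 75.2 and 327 FPKM, and 2 of the 4 markers of cortical excitatory neurons were called lower (summed 690.1 to 771 FPKM in CrT-/y and 685 to 834.5 FPKM in CrT+/y). Of the 4 endothelial markers 2 were called lower (summed 43.7 to 59.3 FPKM in CrT-/y and 57.6 to 68.9 FPKM in CrT+/y), and 1 of 4 interneuron markers (248 to 275 FPKM and 226 to 260.2 FPKM) and 1 of 2 tested olfactory bulb markers (4.28 to 12.5 FPKM and 1.84 to 4.46 FPKM) were called higher. Oligodendrocyte markers summed to 762 FPKM in CrT-/y replicate 3 and to between 1070.0 and 1405 FPKM in the other animals. The part of these markers in the results was not tested. In bulk tissue, fewer cells of a type and less RNA per cell cannot be told apart.

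The members were moderately expressed. Their median was 20.03 FPKM, against 11.1 FPKM for all tested genes, and they ran from 4.14 FPKM for Mrpl17 to 125 FPKM for Mrps21. The large and small subunit symbols had nearly the same median level, 20.4 and 19.1 FPKM, although the proteins of one ribosome are present once each (Mrpl12 of the stalk being the known exception). Among the large subunit symbols the highest levels belonged to Mrpl52, Mrpl42 and Mrpl20, and the lowest to Mrpl19, Mrpl1 and Mrpl17. The first 3 have short annotated transcripts (418, 666 and 764 bp) and the last 3 long ones (5000, 3556 and 7300 bp). Their order may therefore depend on the length used for scaling, which was not tested. Mrpl52 was at 80.3 ± 4.77 FPKM in CrT-/y (SD, n = 4) and 63.6 ± 16.1 FPKM in CrT+/y (SD, n = 3). Mrpl20, a homologue of a bacterial protein, was at 61.9 ± 4.82 and 62.0 ± 8.46 FPKM. The order of these 3 differed between the groups, since Mrpl42 was at 52.3 ± 5.58 FPKM in CrT-/y and 78.1 ± 8.11 FPKM in CrT+/y. At the other end, Mrpl19 was at 6.10 ± 0.340 and 6.99 ± 0.253 FPKM, Mrpl1 at 5.52 ± 0.3996 and 6.04 ± 0.102 FPKM, and Mrpl17 lower still at 4.35 ± 0.106 and 3.86 ± 0.255 FPKM.

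Among the small subunit symbols, Mrps21 was far above the rest at 127 ± 14.0 FPKM in CrT-/y and 123 ± 15.8 FPKM in CrT+/y. Mrps33 and Mrps12, the latter a homologue of a bacterial protein of the decoding centre, followed at 47.7 ± 2.60 and 36.9 ± 4.47 FPKM in CrT-/y and 41.3 ± 8.66 and 44.3 ± 8.21 FPKM in CrT+/y. The lowest were Mrps31 (10.1 ± 0.478 and 10.5 ± 0.254 FPKM), Mrps35 (11.1 ± 1.15 and 12.9 ± 0.660 FPKM) and Mrps11 (12.9 ± 1.11 and 13.1 ± 1.94 FPKM), whose CrT-/y values overlapped from each gene to the next. Annotated lengths were 488, 1107 and 883 bp for Mrps21, Mrps33 and Mrps12. They were 1515, 4162 and 1056 bp for Mrps31, Mrps35 and Mrps11. The median coefficient of variation between animals was 5.50% in CrT-/y and 8.96% in CrT+/y for the members, beside 5.82% and 9.27% for all tested genes.

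**Figure D1:**
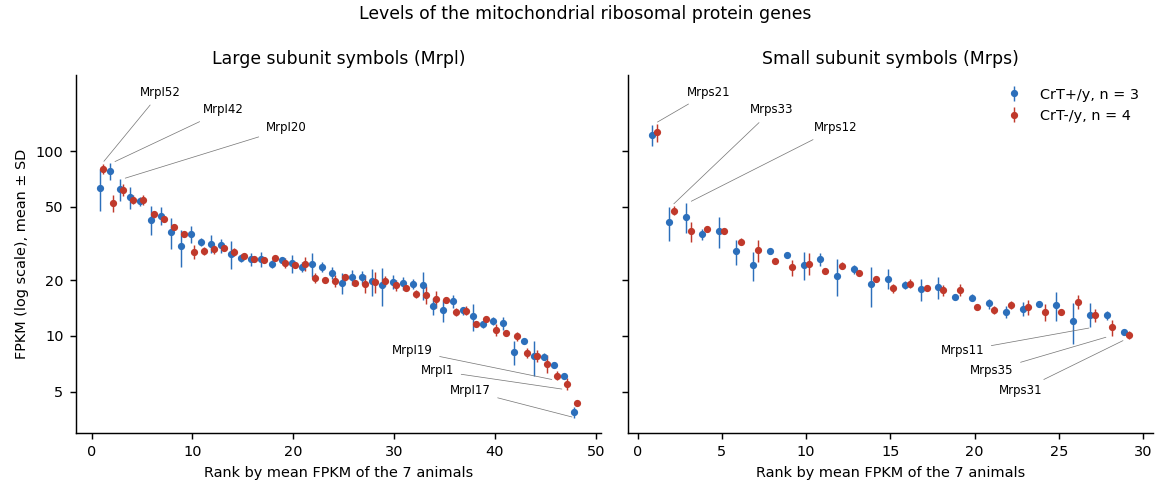
FPKM of each member on a log axis, ranked by its mean over the 7 animals, for large subunit symbols on the left and small subunit symbols on the right; points are group means (blue CrT+/y, n = 3; red CrT-/y, n = 4) and lines are SD. Levels fall from 125 FPKM for Mrps21 to 4.14 FPKM for Mrpl17, and the blue and red points lie close together for most genes.

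In the comparison of genotypes, 6 of the 77 members were called (7.79%), beside 10.1% of all tested genes. All 6 were lower in CrT-/y, namely Mrpl42, Mrpl34, Mrpl24, Mrpl35, Mrps23 and Mrps5, beside 7.25% of all tested genes called lower. No member was called higher by limma, beside 2.9% of all tested genes, while 18 of the 77 had an unadjusted p under 0.05, beside 25.0% of all tested genes. With FPKM as deposited, the share of members called was thus near, and slightly under, that of the whole table. Under the other scalings it was lower. With upper quartile scaling 3 members were called (3.9%, beside 9.27% of all tested genes), Mrpl10 and Mrpl11 higher and Mrpl42 lower. The whole table then split into 741 higher and 463 lower, against 377 higher and 941 lower without it. Quantile normalisation gave 528 higher and 555 lower over the whole table, and median centring gave 490 higher and 527 lower. Each called 1 member (1.3%), beside 8.34% and 7.83% of all tested genes. After a correction for transcript length, 449 genes were higher and 614 lower, and 6.49% of members were called, beside 8.23% of all tested genes.

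Mrpl42, a large subunit protein with no bacterial counterpart, differed most. It was at 60.5, 49.2, 51.0 and 48.5 FPKM in CrT-/y replicates 0, 1, 2 and 3 and at 87.2, 75.5 and 71.5 FPKM in CrT+/y replicates 1, 2 and 3. The groups did not overlap, and the CrT-/y mean was 67.0% of the CrT+/y mean (log2 fold change -0.58, SE 0.093, limma adjusted p = 0.026). The gene lies at chr10:95480805-95501940 on the minus strand of mm10 with 6 exons. It was the only member called when CrT-/y replicate 2 or CrT+/y replicate 1 was left out, with quantile normalisation and with median centring, and it was not called without CrT-/y replicate 1 (limma adjusted p = 0.11). Without CrT+/y replicate 3 its log2 fold change was -0.64.

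Mrpl34 and Mrpl35 are homologues of bacterial large subunit proteins. Mrpl34 was at 27.4, 27.9, 26.5 and 32.3 FPKM in CrT-/y and at 39.4, 32.4 and 34.9 FPKM in CrT+/y (log2 fold change -0.32, SE 0.087, limma adjusted p = 0.077). The groups did not overlap, although CrT-/y replicate 3 and CrT+/y replicate 2 were nearly level. Mrpl35 was at 7.95, 7.82, 8.77 and 7.84 FPKM in CrT-/y and at 9.57, 9.33 and 9.37 FPKM in CrT+/y (log2 fold change -0.22, SE 0.066, limma adjusted p = 0.093). Here too the groups were apart, with CrT-/y replicate 2 the nearest to the CrT+/y animals.

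Mrpl24 is a homologue of a bacterial protein at the mouth of the exit tunnel. It was at 20.4, 20.3, 19.3 and 20.1 FPKM in CrT-/y and at 22.6, 22.7 and 25.2 FPKM in CrT+/y (log2 fold change -0.23, SE 0.059, limma adjusted p = 0.063). The CrT-/y animals were close together and all lower. Mrpl24 shares 594 exon bases with Rrnad1 on the opposite strand, and whether the counting used strand is not given in the sources used here, so reads of the 2 genes may not be separable.

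Of the small subunit, Mrps5 descends from a bacterial protein and Mrps23 is found only in mitochondria. Mrps23 was at 26.1, 25.4, 24.2 and 25.6 FPKM in CrT-/y and at 28.8, 29.9 and 27.7 FPKM in CrT+/y (log2 fold change -0.19, SE 0.053, limma adjusted p = 0.084). Mrps5 was at 23.4, 22.2, 22.8 and 21.6 FPKM in CrT-/y and at 28.3, 25.4 and 24.4 FPKM in CrT+/y (log2 fold change -0.21, SE 0.064, limma adjusted p = 0.098). In both genes all CrT-/y animals were below all CrT+/y animals. Apart from Mrpl42, the called differences were between -0.32 and -0.19, and their adjusted p lay between 0.063 and 0.098, close to the limit of 0.1.

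**Figure D2:**
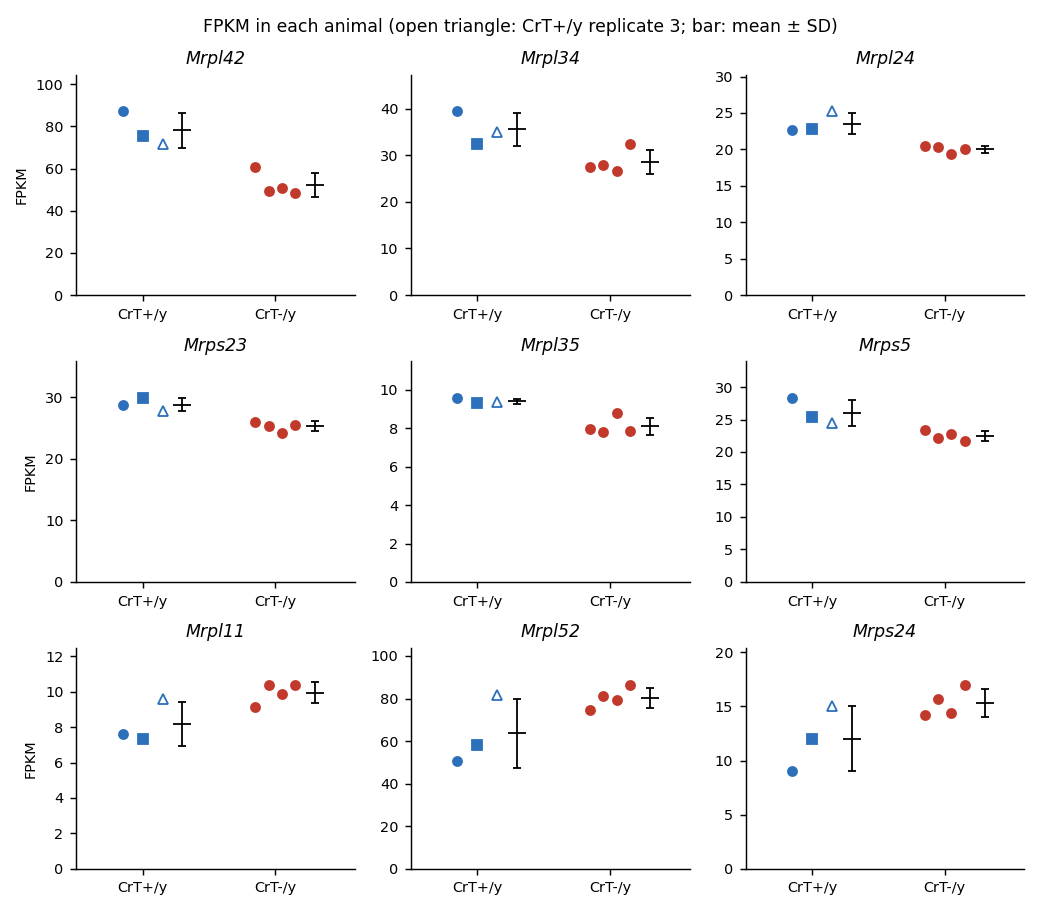
FPKM of the 6 called members (upper 6 panels) and of Mrpl11, Mrpl52 and Mrps24, the 3 members of largest positive log2 fold change (bottom panels), in each animal; axes start at 0, blue is CrT+/y (circle, square and open triangle for replicates 1, 2 and 3), red is CrT-/y, and bars are mean ± SD. In the upper panels no red point reaches a blue one, and in the bottom panels the open triangle sits among the red points.

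Further members were lower in value without passing the test. Mrps12 was at 36.9 ± 4.47 FPKM in CrT-/y and 44.3 ± 8.21 FPKM in CrT+/y (log2 fold change -0.25, limma adjusted p = 0.25), and its groups overlapped. Mrps15 (log2 fold change -0.23, limma adjusted p = 0.12), Mrpl46 (-0.23, adjusted p = 0.17), which shares exon bases with Mrps11, and Mrps35 (-0.22, adjusted p = 0.16) completed the low end beside the called genes. In all, 14 of the 77 members had their highest CrT-/y value under their lowest CrT+/y value, and 15.0% of all tested genes did so. The opposite arrangement was seen in 2 of the 77 members, Mrpl10 and Mrpl17, and in 6.57% of all tested genes.

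At the high end, Mrps24, a homologue of a bacterial protein of the messenger entry side, was at 14.2, 15.7, 14.4 and 17.0 FPKM in CrT-/y and at 9.05, 11.99 and 15.0 FPKM in CrT+/y (log2 fold change 0.37, SE 0.15, limma adjusted p = 0.17). It shares 226 exon bases with Urgcp on the same strand. Mrpl52, found only in mitochondria, was at 74.9, 81.1, 79.1 and 86.4 FPKM in CrT-/y and at 50.8, 58.3 and 81.6 FPKM in CrT+/y (log2 fold change 0.36, SE 0.14, limma adjusted p = 0.15). In both genes CrT+/y replicates 1 and 2 were below all CrT-/y animals and CrT+/y replicate 3 was among them. The same order held for Mrpl11, a protein of the stalk base, at 9.12, 10.4, 9.86 and 10.4 FPKM in CrT-/y and 7.60, 7.36 and 9.60 FPKM in CrT+/y (log2 fold change 0.28, limma adjusted p = 0.13). Mrps18c (0.27) and Mrpl27 (0.25), each with a limma adjusted p of 0.24, were next.

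**Figure D3:**
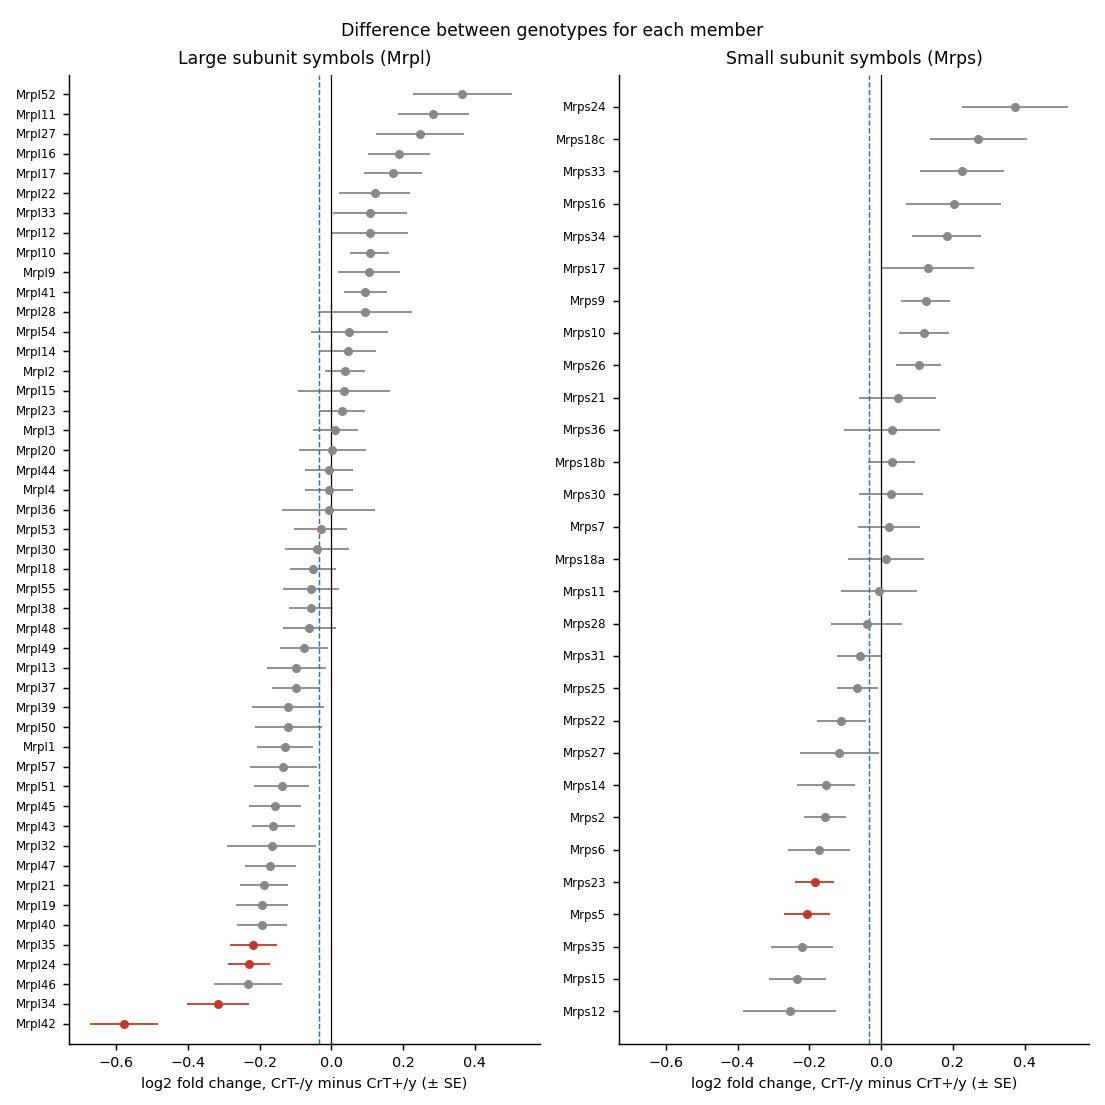
Log2 fold change of CrT-/y over CrT+/y with its SE for each member, ordered within large (left) and small (right) subunit symbols; red marks limma adjusted p under 0.1, the black line is 0 and the dashed blue line is the median of all tested genes at -0.03. The 6 red points are all to the left of 0, and Mrpl42 at -0.58 lies beyond every other member.

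Over all members, 34 had a positive and 43 a negative log2 fold change, and the median was -0.03, the same as for all tested genes. The 48 Mrpl genes split into 19 positive and 29 negative with a median of -0.05, and 4 were called (8.33%). The 29 Mrps genes split into 15 positive and 14 negative with a median of 0.01, and 2 were called (6.90%), beside 10.1% of all tested genes. In single animals, the median deviation of the Mrps genes minus that of the Mrpl genes was between -0.02 and 0.05 in CrT-/y and between -0.09 and 0.05 in CrT+/y, so the groups overlapped in this gap, for which no test was made. The Mrpl median was 0.02 with quantile normalisation or upper quartile scaling and 0.03 without CrT+/y replicate 3, and the Mrps median was -0.05 after the length correction, so neither sign was stable. Symbols do not follow the ribosome exactly: the proteins of Mrps18a and Mrps30 sit in the large subunit, and that of Mrps36 is now assigned to the 2-oxoglutarate dehydrogenase complex. Placed by structure, 50 large subunit genes had a median of -0.03 and 26 small subunit genes one of -0.02.

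By descent, the large subunit divided as follows. Its 30 homologues of bacterial proteins split into 16 positive and 14 negative values with a median of 0.01, and 3 were called (Mrpl24, Mrpl34 and Mrpl35). Its 18 mitochondria-specific members split into 3 positive and 15 negative with a median of -0.11, and 1 was called (Mrpl42). In the small subunit the 15 homologues had a median of 0.02 and the 11 mitochondria-specific members one of -0.06, with 1 called in each (Mrps5 and Mrps23). These medians and counts are descriptions without a test. Over all tested genes 41.8% had a positive value and 10.1% were called. Without CrT+/y replicate 3 these medians were, in the order given, 0.07, -0.06, 0.09 and -0.04, beside -0.04 for all tested genes.

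Within the large subunit, the stalk, which recruits translation factors, comprises Mrpl10, Mrpl11 and Mrpl12. Mrpl10 was at 26.1, 26.8, 26.3 and 26.7 FPKM in CrT-/y and 25.3, 23.1 and 25.4 FPKM in CrT+/y (log2 fold change 0.11, limma adjusted p = 0.25), so that its groups did not overlap. Mrpl12 was at 38.9 ± 1.62 and 36.5 ± 6.98 FPKM (0.11, limma adjusted p = 0.56). No stalk gene was called, although all 3 values were positive. Of 6 genes of the tunnel exit 1 was called (Mrpl24), with a median of -0.06, and of 8 genes of the central protuberance, which faces the small subunit, 0 were called by limma, with 3 at an unadjusted p under 0.05. These small lists stand beside 10.1% of all tested genes called and 25.0% at an unadjusted p under 0.05. Without CrT+/y replicate 3, 2 stalk genes were called higher and 1 tunnel exit gene lower. Of the central protuberance 2 were then called higher and 1 lower. Of all tested genes 10.3% were called higher and 18.4% lower in that fit.

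The 3 paralogues of bacterial S18 were close to level between genotypes except for Mrps18c. Mrps18a was at 36.9 ± 1.13 FPKM in CrT-/y and 36.9 ± 6.93 FPKM in CrT+/y, and Mrps18b at 19.2 ± 1.06 and 18.8 ± 0.978 FPKM. Mrps18c was at 29.1 ± 3.99 and 24.2 ± 4.29 FPKM, with overlapping groups. Mrps30 was at 14.3 ± 1.28 and 14.0 ± 1.23 FPKM and Mrps36 at 24.6 ± 3.32 and 24.2 ± 4.16 FPKM.

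A list of 11 members whose mutations cause human mitochondrial disease with defective translation was read next. It is not complete and leaves out the called genes Mrpl24 and Mrps23, for which disease variants are also known. Of the 11 listed, 5 had a positive and 6 a negative log2 fold change, the median was -0.01, and 0 were called by limma, with 1 at an unadjusted p under 0.05. Over all tested genes 10.1% were called and 25.0% had an unadjusted p under 0.05, so a list of 11 says little. The 1 listed gene at that level was Mrps2, at 14.4 ± 0.490 FPKM in CrT-/y and 16.1 ± 0.715 FPKM in CrT+/y (log2 fold change -0.16, limma adjusted p = 0.14). Mrps14 (-0.15), Mrps22 (-0.11), Mrps25 (-0.07) and Mrps28 (-0.04) were also negative, as was Mrpl44 (-0.01). Mrps16 (0.20), Mrps34 (0.18), Mrpl12 (0.11), Mrps7 (0.02) and Mrpl3 (0.01) were positive. Without CrT+/y replicate 3, 3 of the 11 were called higher and 1 lower, beside 10.3% and 18.4% of all tested genes. Mrps34 is among the 23 members that share exon sequence with another protein-coding gene, 20 of them with one on the opposite strand and 4 with one on the same strand.

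CrT+/y replicate 3 set the members apart within its own group. It held the highest of the 3 CrT+/y values in 53 of 77 members (68.8%), beside 33.4% of all tested genes, and the highest of all 7 values in 36 members (46.8%), beside 17.5% of all tested genes. The median log2 deviation of the Mrpl genes from their mean over animals was 0.13 in this animal, against -0.03 in CrT+/y replicates 1 and 2 and between -0.03 and 0.01 in the CrT-/y animals. For the Mrps genes it was 0.10 in this animal, 0.02 and -0.11 in CrT+/y replicates 1 and 2, and between -0.03 and 0.02 in the CrT-/y animals. The median over all tested genes was between -0.02 and 0.03 in every animal. Summed over members, this animal had 2114 FPKM, the other CrT+/y animals 1876 and 1825 FPKM, and the CrT-/y animals 1930, 1875, 1899 and 1930 FPKM.

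In the cytosolic ribosomal protein genes, 84 of them tested, CrT+/y replicate 3 again differed from CrT+/y replicates 1 and 2. Here it lay within the range of the CrT-/y animals, and CrT+/y replicates 1 and 2 lay below that range. Their median deviation was -0.20 and -0.21 in CrT+/y replicates 1 and 2 and 0.10 in replicate 3, while the CrT-/y animals lay between 0.06 and 0.10. Of these genes 9 were called higher and 0 lower (10.7%), beside 2.9% and 7.25% of all tested genes, with a median log2 fold change of 0.19. Without CrT+/y replicate 3, 53 were called higher and 0 lower (63.1%), beside 10.3% and 18.4% of all tested genes. Members are short transcripts, with a median length of 1288 bp beside 3085 bp for all tested genes. The log2 level relative to the other animals changed with each doubling of transcript length by 0.034 and 0.063 in CrT+/y replicates 1 and 2, by -0.026 in CrT+/y replicate 3, and by -0.030 to -0.012 in the CrT-/y animals. The depth of CrT+/y replicate 3 was 1.09 times that of CrT-/y replicate 0, against 0.877 and 0.901 for CrT+/y replicates 1 and 2. The part of length and depth in the members' differences was not tested, and after the length correction 5 members were called, all lower (Mrpl21, Mrpl24, Mrpl34, Mrpl40 and Mrpl42).

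**Figure D4:**
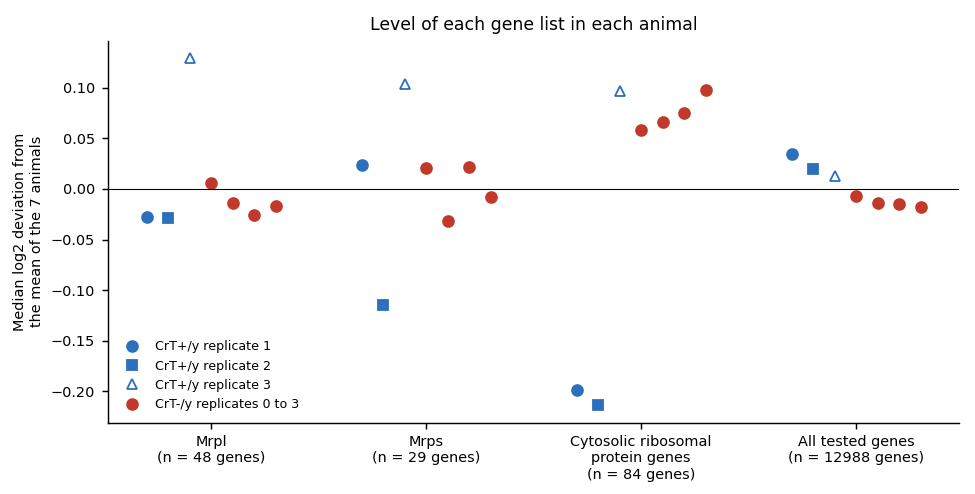
Median log2 level in each animal, relative to each gene's mean over animals, for the Mrpl, Mrps and cytosolic ribosomal protein genes and for all tested genes; blue symbols are the 3 CrT+/y animals and red circles the 4 CrT-/y animals. The open triangle (CrT+/y replicate 3) is at 0.13 for Mrpl and 0.10 for Mrps, while it lies near the others for all tested genes. For the cytosolic ribosomal protein genes it lies within the range of the red circles, and the other blue symbols lie below them.

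Without CrT+/y replicate 3, 26 of the 77 members were called (33.8%), beside 28.7% of all tested genes. Where this animal held the highest CrT+/y value, leaving it out raises the log2 fold change by construction. The limma p-values below therefore depend on the values by which the animal was picked. These were 13 lower, among them all 6 of the main comparison, and 13 higher, beside 18.4% and 10.3% of all tested genes in these directions. The largest positive log2 fold changes were then those of Mrpl52 (0.56, limma adjusted p = 0.0057), Mrps24 (0.55, limma adjusted p = 0.021), Mrpl27 (0.43, limma adjusted p = 0.0053) and Mrpl11 (0.40, limma adjusted p = 0.012). The others called higher were Mrpl12, Mrpl16, Mrpl28, Mrpl33, Mrps16, Mrps17, Mrps18c, Mrps33 and Mrps34. The 7 further genes called lower were Mrpl19, Mrpl32, Mrpl39, Mrpl43, Mrpl46, Mrps2 and Mrps15. With 2 CrT+/y animals left, Mrpl and Mrps genes were at a median of 0.03 and 0.07, and all tested genes at -0.04.

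**Figure D5:**
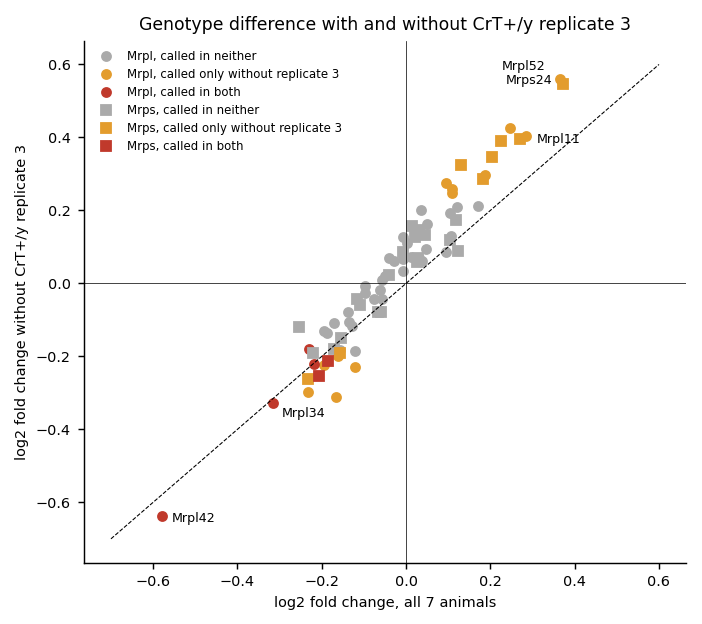
Log2 fold change of each member without CrT+/y replicate 3 (vertical axis) against that with all 7 animals (horizontal axis), circles for Mrpl and squares for Mrps, coloured by whether limma adjusted p was under 0.1; the dashed line marks equal values. Most points lie above the dashed line, and Mrpl42 stays far from the rest at the lower left.

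Sequences around the start of the members were searched for motifs of 3 factors known from housekeeping promoters. RefSeq (GRCm38.p6) gave a window from 250 bases before to 50 after the start for 68 of the 77 members. On either strand, the letters AAGATGGC (a YY1 motif) occurred in 12 of the 68 (17.6%), beside 5.27% of 9868 tested genes and 3.19% of 27025 genes with such a window. CCGGAAG (an ETS motif) occurred in 25 (36.8%), beside 19.0% and 9.93%. GCATGCGC, the core of an NRF1 motif, occurred in 8 (11.8%), beside 5.9% and 3.05%. Of the 6 called genes, Mrpl42 and Mrpl35 held AAGATGGC, Mrpl34 and Mrps23 held CCGGAAG, and Mrpl24 and Mrps5 held none of these. A match describes letters and is no binding site.

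The windows of Mrpl42, the member that fell most, and of Mrpl35, both with AAGATGGC, are set beside those of Mrps24 and Mrpl52, the members with the largest positive values, with motif matches in capitals. They lie at chr10:95501900-95502199 and chr6:71823735-71824034 (Mrpl42 and Mrpl35, both minus strand), chr11:5707652-5707951 (Mrps24, minus strand) and chr14:54426659-54426958 (Mrpl52, plus strand), and each is printed on its gene's strand.
Mrpl42: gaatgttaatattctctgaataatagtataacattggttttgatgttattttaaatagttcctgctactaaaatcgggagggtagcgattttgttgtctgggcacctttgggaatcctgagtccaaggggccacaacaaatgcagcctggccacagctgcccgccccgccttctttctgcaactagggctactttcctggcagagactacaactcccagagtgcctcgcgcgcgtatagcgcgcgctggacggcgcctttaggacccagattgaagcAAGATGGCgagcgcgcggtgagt
Mrpl35: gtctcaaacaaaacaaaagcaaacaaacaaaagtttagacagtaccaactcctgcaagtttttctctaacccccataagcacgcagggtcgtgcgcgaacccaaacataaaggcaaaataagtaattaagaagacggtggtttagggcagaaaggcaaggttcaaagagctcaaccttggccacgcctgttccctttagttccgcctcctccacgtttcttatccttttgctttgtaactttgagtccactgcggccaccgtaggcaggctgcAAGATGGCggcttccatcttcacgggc
Mrps24: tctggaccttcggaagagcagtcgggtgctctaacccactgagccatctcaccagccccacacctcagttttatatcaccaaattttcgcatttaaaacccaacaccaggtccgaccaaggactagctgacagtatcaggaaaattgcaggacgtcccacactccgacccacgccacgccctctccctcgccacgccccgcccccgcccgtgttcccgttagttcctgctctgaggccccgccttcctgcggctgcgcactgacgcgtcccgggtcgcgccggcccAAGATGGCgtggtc
Mrpl52: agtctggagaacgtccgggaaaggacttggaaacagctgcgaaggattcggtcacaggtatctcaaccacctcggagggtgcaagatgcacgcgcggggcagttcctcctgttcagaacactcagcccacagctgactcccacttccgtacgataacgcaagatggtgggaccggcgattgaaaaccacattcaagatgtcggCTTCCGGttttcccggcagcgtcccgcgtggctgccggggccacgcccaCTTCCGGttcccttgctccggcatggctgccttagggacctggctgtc
AAGATGGC is present in the windows of Mrpl42 and Mrpl35, which were called lower, and of Mrps24, which was not called (limma adjusted p = 0.17). Mrpl52 holds 2 matches of the ETS motif on its opposite strand. The windows were picked by the genes' values or motif, and the part of the motifs in the differences was not tested.

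Other genes of mitochondrial translation, and genes of mitochondrial DNA transcription and maintenance, were read from lists of 74 genes in the table, 73 of them tested. Of these 4 were called (5.48%), all lower in CrT-/y, beside 10.1% of all tested genes called and 7.25% called lower. Mrrf, the ribosome recycling factor, was at 6.80, 6.03, 6.31 and 7.23 FPKM in CrT-/y and 7.61, 8.96 and 8.47 FPKM in CrT+/y (log2 fold change -0.34, limma adjusted p = 0.066). Taco1, the translational activator of cytochrome c oxidase subunit I, was at 7.79 ± 0.462 and 9.59 ± 0.463 FPKM (-0.30, limma adjusted p = 0.058). Gfm1, elongation factor G1, was at 16.0 ± 0.808 and 18.5 ± 0.232 FPKM (-0.21, limma adjusted p = 0.079), and Mterf2, of the mitochondrial termination factor family, at 7.04 ± 0.309 and 8.31 ± 0.320 FPKM (-0.24, limma adjusted p = 0.080). In these 4 genes, named because they were called, the groups did not overlap, as in 15.0% of all tested genes in this direction.

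These 4 belong to the 15 translation factors (3 called) and the 10 tested genes of mitochondrial DNA transcription and maintenance (1 called). Among 25 assembly factors 0 were called by limma, with 1 at an unadjusted p under 0.05, and among 17 mitochondrial tRNA synthetases 0 were called, with 3 at that level. The 6 further mitoribosomal proteins whose symbols lack the Mrp prefix (Dap3, Ptcd3, Chchd1, Aurkaip1, Gadd45gip1 and Ict1) had log2 fold changes between -0.10 (Ptcd3) and 0.15 (Chchd1), and 0 were called by limma or had an unadjusted p under 0.05. CrT+/y replicate 3 was the highest CrT+/y animal in all 6 of them, beside 33.4% of all tested genes. The counts of these small lists stand beside 10.1% of all tested genes called and 25.0% at an unadjusted p under 0.05. Without CrT+/y replicate 3, 3 translation factors were called higher and 4 lower. Of the 6 further mitoribosomal proteins 2 were then called higher and 0 lower. Assembly factors and tRNA synthetases each had 1 higher and 0 lower, and DNA transcription and maintenance 1 higher and 2 lower. Of all tested genes 10.3% were higher and 18.4% lower in that fit. None of the 13 protein-coding genes of mitochondrial DNA itself was found in the table by its mt- symbol, so they could not be analysed here.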

How the data were processed

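RNA was extracted from cerebral cortex, 1 paired-end mRNA-seq library was made per animal, and the authors aligned reads to mm10 with the Tuxedo protocol, keeping uniquely aligned reads on known exons and junctions. The submitters' processing notes name Bowtie and Cuffnorm, and versions are not given in the sources used here. The authors deposited 1 table of normalised FPKM per gene and animal, and no read counts. Groups and replicate numbers come from the labels. FPKM of 24346 genes were read as deposited, and 5246 genes were at 0 in all animals. Genes whose mean reached 1 FPKM were tested on log2(FPKM + 0.1) with limma 3.58.1 in R 4.3.3 (genotype term, moderated variance with a mean trend, Benjamini-Hochberg over 12988 genes), and the script was tested on simulated data. Transcript lengths, positions and exon overlaps came from GENCODE (GRCm38) by symbol. The members and lists were chosen with earlier results of these data known. Named genes were all called members, the 5 of largest and of smallest log2 fold change, the 3 of highest and of lowest level in each subunit, the stalk, S18-paralogue, misassigned and disease lists, called genes of the other lists, and the mitoribosomal genes outside the rule; Mrpl21, Mrpl40, Mrpl54 and those called only without 1 animal were named after their values were seen. Alternatives were other pseudocounts, filters, scalings, a length correction, a replicate block and leaving out each animal. Read totals per library are not part of the deposited table and were not used here, so no counting interval is given.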

Additional observations from a re-analysis of the deposited data

Results flagged for a closer look

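In 4 of 88 genes checked for 1 distant animal among the 4 CrT-/y animals, 1 value stood far from the other 3, where chance marks about 1 in 20 groups. Mrpl20 was at 69.05 FPKM in CrT-/y replicate 3 and between 58.6 and 60.03 FPKM in the others. Mrpl35 was at 8.775 FPKM in CrT-/y replicate 2 and between 7.82 and 7.95 FPKM in the others, and it remained below the CrT+/y animals. Mrpl54 was at 30.84 FPKM in CrT-/y replicate 0 and between 27.7 and 28.1 FPKM in the others. Mrps31 was at 9.389 FPKM in CrT-/y replicate 1 and between 10.3 and 10.4 FPKM in the others. Groups of 3 were not checked.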

How the results depend on the processing

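With all alternatives no log2 fold change of a called member changed sign, but most called members were near the threshold. Mrpl42 was called in all settings except with no filter on low values or with CrT-/y replicate 1 left out, and its log2 fold change ranged from -0.77 to -0.50. Members called numbered 0 without a filter, 1 with quantile normalisation, 3 with upper quartile scaling, 1 with median centring and 2 without a variance trend. In the same order these were 0, 1.3%, 3.9%, 1.3% and 2.6% of members. The shares of all genes tested in these settings were 1.45%, 8.34%, 9.27%, 7.83% and 7.12%. Leaving out 1 animal gave between 0 (CrT-/y replicate 1 left out) and 26 (CrT+/y replicate 3 left out) members, beside 0.493% and 28.7% of all tested genes. It gave 2, 1 and 2 when the animal was CrT-/y replicate 0, 2 or 3, beside 4.73%, 1.72% and 2.53% of all tested genes. With CrT+/y replicate 1 or 2 left out it gave 1 and 4, beside 1.95% and 5.86%. Over the whole table, 353 genes were called without a filter, and between 64 (CrT-/y replicate 1) and 3733 (CrT+/y replicate 3) when 1 animal was left out. Called genes of the other lists (mitochondrial translation, and mitochondrial DNA transcription and maintenance) numbered 0 without a filter, 1 with upper quartile scaling and 2 with median centring. They numbered 0 to 14 when 1 animal was left out. The Mrpl median was 0.022 with quantile normalisation and 0.017 with upper quartile scaling, and ranged from -0.077 to 0.027 when 1 animal was left out; the Mrps median then ranged from -0.060 to 0.071. The cause of these changes was not tested.

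Deviations of same-numbered animals correlated at -0.14, 0.10 and -0.05, and those of animals with other numbers between -0.18 and 0.23. With 3 animals per group these values cannot tell whether animals were paired by litter or handling. A replicate block over replicates 1 to 3, which leaves out CrT-/y replicate 0, called 575 genes over the table (4.43%). It called 1 member (1.3%) and 1 other gene of the lists of mitochondrial translation and of mitochondrial DNA transcription and maintenance. The block with a length correction called 171 genes (1.32%), 2 members (2.6%) and 0 other genes, with an Mrps median of -0.073.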
